A study of Mus musculus with 5 samples.

Results

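Broad PU.1 regions are stretches of the mouse genome in which the deposited windows of PU.1 signal ran on for at least 600 bp. They were chosen by the width of the signal, a measured value, by leaving out windows with 1000 or more input counts, joining the other windows wherever they lay at most 100 bp apart, and keeping joined regions of 600 bp or more. This gave 1106 broad regions among 67237 regions in all, or 1.64%, and the other 66131 regions were narrower. The windows are 10 bp wide on a 50 bp grid, so widths come in steps of 50 bp and a read can be counted in several windows.

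The signal came from chromatin immunoprecipitation and sequencing (ChIP-seq) with the PU.1 antibody T-20 in dendritic cells grown from mice of a strain labelled C56BL/6 in Flt3L culture, in which the cytokine Flt3 ligand drives dendritic cell development. One group was conventional dendritic cells (cDCs) and the other plasmacytoid dendritic cells (pDCs), with 2 replicate libraries in each. The labels do not say that replicates came from separate cultures or animals, so p-values measure only the spread between these libraries, which may be technical. The only input library, unprecipitated chromatin, came from cDCs and served for both. How cDCs and pDCs were separated from the culture, and the age of the mice, are stated in none of the sources used here, and ChIP-seq gives no marker transcripts with which to check the labels. In bulk libraries, binding in fewer cells and less binding per cell cannot be told apart.

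PU.1, encoded by Spi1, is an ETS-family transcription factor that myeloid and dendritic cell development depend on, and it is known for binding purine-rich sites with the core GGAA at promoters and enhancers. Antigen presentation to T cells is the main task of cDCs, whereas pDCs are known for making type I interferon. A ChIP-seq fragment covers more than the bound site, so a single site gives a peak far wider than the site, and a longer region can hold several sites side by side.

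A small set of promoters under broad regions is shown first, because they hold the letters of a PU.1 site at known places along the signal. The sequences are from RefSeq, build GRCm38.p6, each from 250 bases before to 50 bases after an annotated start, 5′ to 3′ on the gene's strand. Capitals mark the core GAGGAA on either strand, or the longer PU.1 motif GAGGAAGT (ACTTCCTC on the other strand) where it is complete. Pik3cg (chr12:32208421-32208720, minus strand) encodes the catalytic subunit of phosphoinositide 3-kinase gamma, Elmo1 (chr13:20090257-20090556, plus strand) a regulator of Rac in phagocytosis, and Zfp809 (chr9:22225453-22225752, plus strand) a zinc-finger protein. Polm (chr11:5837967-5838266, minus strand), the gene of DNA polymerase mu, and the 2 starts of Itpripl1 (chr2:127142541-127142840, minus strand, and chr2:127143408-127143707, minus strand) are shown because the regions over them differed between cDCs and pDCs or lay next to one that did.
Pik3cg: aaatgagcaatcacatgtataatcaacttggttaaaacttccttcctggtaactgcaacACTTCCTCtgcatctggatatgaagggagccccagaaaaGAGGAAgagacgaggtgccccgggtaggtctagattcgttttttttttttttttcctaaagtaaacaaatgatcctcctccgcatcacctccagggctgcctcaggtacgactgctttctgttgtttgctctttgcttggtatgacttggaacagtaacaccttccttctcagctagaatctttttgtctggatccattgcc
Elmo1: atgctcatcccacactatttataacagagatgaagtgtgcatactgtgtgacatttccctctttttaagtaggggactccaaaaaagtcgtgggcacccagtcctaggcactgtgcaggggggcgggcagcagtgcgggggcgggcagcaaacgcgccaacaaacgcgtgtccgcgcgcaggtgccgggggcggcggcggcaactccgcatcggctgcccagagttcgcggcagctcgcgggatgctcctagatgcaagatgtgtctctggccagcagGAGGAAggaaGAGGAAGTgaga
Zfp809: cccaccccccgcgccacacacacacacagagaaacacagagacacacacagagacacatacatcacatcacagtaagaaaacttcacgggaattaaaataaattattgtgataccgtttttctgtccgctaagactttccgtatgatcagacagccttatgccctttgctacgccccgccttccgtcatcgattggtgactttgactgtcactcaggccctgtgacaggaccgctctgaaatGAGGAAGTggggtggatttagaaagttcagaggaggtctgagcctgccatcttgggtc
Polm: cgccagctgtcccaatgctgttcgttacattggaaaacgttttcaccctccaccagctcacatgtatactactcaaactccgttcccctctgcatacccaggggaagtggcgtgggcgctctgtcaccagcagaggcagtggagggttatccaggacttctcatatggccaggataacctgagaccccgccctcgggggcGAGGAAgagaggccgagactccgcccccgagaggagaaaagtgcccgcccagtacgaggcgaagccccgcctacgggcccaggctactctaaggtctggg
Itpripl1, start in the narrower region: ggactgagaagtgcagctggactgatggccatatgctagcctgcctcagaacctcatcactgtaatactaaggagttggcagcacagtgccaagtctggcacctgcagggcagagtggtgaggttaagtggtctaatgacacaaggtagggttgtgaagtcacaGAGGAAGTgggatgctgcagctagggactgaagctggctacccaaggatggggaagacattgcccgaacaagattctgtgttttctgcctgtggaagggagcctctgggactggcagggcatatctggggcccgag
Itpripl1, start in the wider region: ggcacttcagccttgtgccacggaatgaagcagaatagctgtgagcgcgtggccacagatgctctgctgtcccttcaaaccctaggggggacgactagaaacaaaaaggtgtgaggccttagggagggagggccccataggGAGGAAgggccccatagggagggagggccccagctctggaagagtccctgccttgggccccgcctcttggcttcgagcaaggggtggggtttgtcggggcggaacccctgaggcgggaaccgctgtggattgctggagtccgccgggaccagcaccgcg

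The distance of the longer motif from the highest window of its region varied between promoters. Measured from the centre of the region, the core of the motif of Pik3cg was at -174 bp and the highest window at -175 bp. For Elmo1 these places were 192 bp and 200 bp, and for Zfp809 -108 bp and -100 bp. At the narrower Itpripl1 region they were 168 bp and 200 bp. In 2 promoters that are not printed the motif lay farther from the highest window. For Apbb1ip it was at 331 bp with the highest window at -350 bp. For Gpd2 it was at -149 bp with the highest window at -225 bp. The single short core of Polm lay at 333 bp while the highest window of its region was at -375 bp, inside the gene. Over all broad regions that were not rich in input (defined below), 27 distinct matches to GAGGAAGT lay in the promoters they covered, at a median of 24.0 bp from the top of the nearest sub-peak, and 23 of the 27 lay within 50 bp. The annotated starts of these promoters were themselves near such tops, at a median of 43.5 bp. Measured to the nearest sub-peak top, the Apbb1ip match was 20.0 bp away and the Gpd2 match 77.0 bp. In regions under 600 bp, 328 matches had a median of 18.5 bp, with 84.1% within 50 bp, and the starts a median of 41.5 bp.

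Of the 281 promoters whose start lay in such a broad region, 10.7% held GAGGAAGT on either strand, against 9.24% of 3833 promoters in narrower regions, 2.32% of 28702 promoters in no listed region and 3.20% of all 32817 promoters. The core GAGGAA, which the longer motif contains, was in 45.9% of promoters in broad regions, 39.7% of those in narrower regions and 28.3% of all. The composite ETS-IRF motif was in 3.91% of promoters in broad regions, 3.84% of those in narrower regions and 2.72% of all. For the AP-1 motif TGANTCA these shares were 4.27%, 5.06% and 7.81%. For the C/EBP motif TTGCGCAA they were 0.712% (2 promoters), 0.365% and 0.183%. For the Runx motif TGTGGTTT they were 1.07% (3 promoters), 1.33% and 1.78%. Promoters in broad regions had a median of 21 CpG dinucleotides per 300 bp, those in narrower regions 20 and those in no region 6, so base composition differed along with the motifs. No motif share was tested.

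Most broad regions were only a little over the limit. Widths ran from 610 to 6510 bp with a median of 660 bp, 386 regions were 610 bp wide and 219 reached 800 bp. A further 532 regions fell just outside at 560 bp. Level went with width. The mean signal per window, in counts scaled to library size with TMM factors (CPM), had a median of 4.17 in broad regions, 1.59 in narrower ones, 3.81 in those just inside the limit and 3.63 in those just outside. These values describe what the width rule chose and were not tested.

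The widest regions were mostly of another kind. In 38 of the 1106 regions the raw input count was at least 0.5 of the mean raw PU.1 count, here called input-rich. In the other 1068 it was at most 0.269. These counts were not scaled to depth. Outside the windows left out, the input library had 704301 counts and the PU.1 libraries 5656601 to 10345955. A low ratio therefore does not by itself mean little input. All 4 regions of 2000 bp or more and 8 of the 10 of 1500 bp or more were input-rich. They held 3 regions of 2610 to 6510 bp inside Sfi1, a centrosome gene (chr11:3184251-3200110 in all), 15 regions between chr1:88212301 and chr1:88288960 around Ugt1a10 and Hjurp, and 1 of 6060 bp at chr17:39842901-39848960 in which Esp38 was the nearest gene. Their log2 folds, pDC minus cDC, were all above 0 under TMM scaling, from 0.00 to 1.45 with a median of 0.73. Replicate 2 of the pDCs was the highest of the 4 PU.1 libraries in 28 of the 38, against 88 of the other 1068, and 18.0% of its counts lay in the windows left out for their input, against 9.15% to 10.5% in the other PU.1 libraries. The part of this background in the results was not tested, so the totals of called regions, sub-peaks and windows are also given without these regions.

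Signal in most broad regions did not pass the test between pDCs and cDCs. Each region's summed counts were compared between the cell types with edgeR, over the 63769 regions with enough counts, where 18.3% were called at an adjusted p below 0.05, 10.1% as higher in pDCs and 8.18% as higher in cDCs. All 1106 broad regions passed the filter on low counts. Calls were made in 21.5% of these, with 129 regions higher in pDCs, 109 in cDCs and 868 left uncalled. Without the input-rich regions, 105 of 1068 were higher in pDCs and 109 higher in cDCs, a share of 20.0%, near that of all regions. The input-rich regions gave 24 of the pDC calls and no cDC call, also at an unadjusted p, since no fold among them was below 0 under TMM scaling.

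Folds in broad regions were mostly small. The median absolute log2 fold was 0.29 in broad and 0.52 in narrower regions, and 7.41% against 24.0% differed by more than 2-fold. The median SE of the log2 fold was also smaller, at 0.22 in broad and 0.43 in narrower regions. Regions of 560 bp, just outside the limit, had a median of 0.32 with 8.65% over 2-fold. Those of 610 bp, just inside, had 0.29 and 8.29%, so small folds were not particular to broad regions. Among narrower regions with a count per window inside the interquartile range of broad regions, 26.4% were called, against 21.7% of the broad regions in that range. These differences between broad and narrower regions were not tested. All called broad regions had cDC and pDC libraries that did not overlap. So did 215 uncalled regions with both pDC libraries above both cDC libraries and 200 with both below, while in 453 the libraries overlapped. Such separation was not counted over all regions, so these numbers cannot be read as a trait of broad regions. With 2 libraries against 2, it is also weak evidence by itself.

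The calls depended on which libraries were used. All 214 called regions outside input-rich ones kept the sign of their log2 fold without each library in turn. Libraries that do not overlap nearly fix this in advance, so it adds no evidence. Of the 214 calls outside input-rich regions, 46 were kept when cDC replicate 1 was dropped and 62 when cDC replicate 2 was. Dropping pDC replicate 1 kept 149 and dropping pDC replicate 2 kept 212. All 4 of these fits kept 39 calls, 13 higher in pDCs and 26 higher in cDCs. The scaling also set the split. With library sizes taken from the windows left out for their input, the median log2 fold of all regions moved from 0.01 to -0.58, and 1 of the 1068 regions, that of Zfp462, was then higher in pDCs and 19 in cDCs. Directions are therefore given relative to the bulk of regions under TMM scaling.

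**Figure D1:**
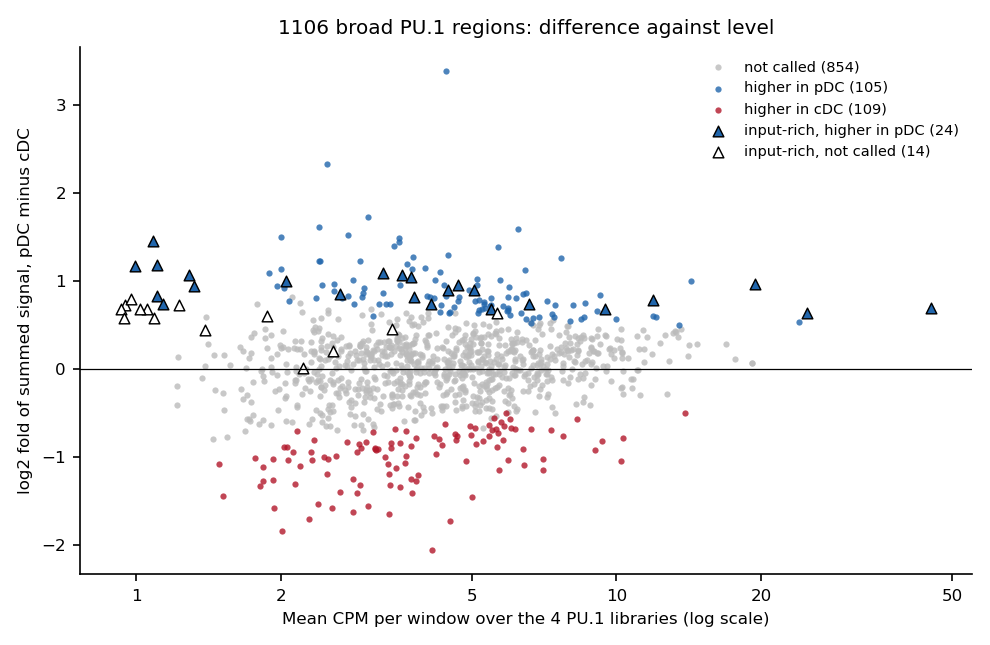
Log2 fold of summed signal (pDC minus cDC) against the mean CPM per window (log scale) for the 1106 broad regions. Circles are regions that were not input-rich, coloured by call, and triangles are the 38 input-rich regions, none of which lies below 0 under TMM scaling.

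Regions higher in pDCs lay near genes of several kinds, and the differences went up to a log2 fold of 3.38. The strongest was at chr4:54714651-54715310, 660 bp wide and 229 kb from the span of its nearest gene, Zfp462, a zinc-finger gene. Its summed CPM was 6.30 and 15.3 in the cDC libraries and 136 and 90.7 in the pDC libraries, in the order of replicates 1 and 2, a log2 fold of 3.38 ± 0.29 (SE, n = 2 libraries per cell type) with an adjusted p of 5.78e-09. Both pDC libraries were thus several times above either cDC library. Library values of regions and sub-peaks below are summed CPM in the same order. At chr6:41554501-41555260, summed CPM was 14.1 and 12.7 in the cDC libraries and 74.9 and 58.5 in the pDC libraries, a log2 fold of 2.32 ± 0.26 (adjusted p = 4.18e-07). Its nearest protein-coding gene was Prss2, the gene of a trypsinogen, 29.4 kb away. Genes of other kinds were not considered in naming regions.

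A further group of pDC-high regions lay near regulators and enzymes known in immune cells. At chr3:52443951-52444660, 93.8 kb from Foxo1, a forkhead transcription factor of lymphoid cells, summed CPM was 43.5 and 50.5 in the cDC libraries and 177 and 104 in the pDC libraries (log2 fold 1.58 ± 0.22, adjusted p = 8.32e-06). Inside Cbfa2t3 (chr8:122666551-122667260), which encodes a corepressor known to act with E proteins in pDCs, it was 16.7 and 16.7 in the cDC libraries and 61.9 and 39.0 in the pDC libraries (log2 fold 1.61 ± 0.27, adjusted p = 0.000104). Inside Kmo, the gene of kynurenine 3-monooxygenase (chr1:175640501-175641160), it was 40.0 and 48.2 in the cDC libraries and 142 and 86.3 in the pDC libraries (log2 fold 1.38 ± 0.22). In these regions pDC replicate 1 was higher than pDC replicate 2, yet both stood above the cDC libraries. Regions inside Cdh23 (1.72 ± 0.26) and Inf2 (1.19 ± 0.20) and near Ffar2 (1.44 ± 0.24) and Inpp1 (1.48 ± 0.25) were also higher in pDCs. The calls of Zfp462, Prss2, Foxo1, Cbfa2t3, Kmo, Cdh23, Inf2, Ffar2 and Inpp1 were all kept without each library in turn.

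Polm was the region over an annotated start with the smallest p. It was 1060 bp wide (chr11:5837201-5838260), and its summed CPM was 98.9 and 100.2 in the cDC libraries and 263 and 211 in the pDC libraries, a log2 fold of 1.25 ± 0.17 (adjusted p = 6.34e-06). The 2 peaks that made up the difference lay at -375 bp and 75 bp from the centre, inside the gene, whereas the start lay at 285 bp, where the libraries of both cell types ran together at a low level. Beside Actb, the gene of beta-actin, a region 0.975 kb outside the gene span (chr5:142908951-142909760) had one of the highest levels of all and still differed, with 152 and 174 in the cDC libraries and 384 and 264 in the pDC libraries (log2 fold 0.99 ± 0.17, adjusted p = 8.73e-05). Both calls were kept without each library in turn.

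Regions higher in cDCs reached log2 folds of -2.06. The largest was inside Slc13a3 (chr2:165405051-165405710), a sodium-dicarboxylate transporter gene, with a summed CPM of 95.5 and 90.5 in the cDC libraries and 15.5 and 29.8 in the pDC libraries, a log2 fold of -2.06 ± 0.26 (adjusted p = 1.97e-06). Inside Efhd2, which encodes the calcium-binding protein swiprosin-1 (chr4:141869501-141870160), it was 99.8 and 94.0 in the cDC libraries and 24.8 and 34.0 in the pDC libraries (log2 fold -1.73 ± 0.23, adjusted p = 4.51e-06). The cDC libraries lay close together in both regions, and both pDC libraries were well below them. Inside Cd36, the gene of a scavenger receptor (chr5:17854251-17854960), summed CPM was 74.9 and 77.0 in the cDC libraries and 22.7 and 38.0 in the pDC libraries (log2 fold -1.34 ± 0.24, adjusted p = 0.000231). Inside Rptor, which encodes the mTORC1 subunit raptor (chr11:119628451-119629310), it was 173 and 167 in the cDC libraries and 86.6 and 80.7 in the pDC libraries (log2 fold -1.02 ± 0.18, adjusted p = 0.000133). Regions near Foxb1 (-1.65 ± 0.25), Vax2 (-1.63 ± 0.28), Tent5c (-1.59 ± 0.25), Glp1r (-1.56 ± 0.25), Qpct (-1.58 ± 0.29) and Pald1 (-1.42 ± 0.22) were also higher in cDCs. All of these calls were kept without each library in turn.

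The Itpripl1 locus held 2 neighbouring broad regions with different log2 folds. The wider one (chr2:127143351-127144260, 910 bp), over a start of the gene, had a summed CPM of 85.2 and 88.5 in the cDC libraries and 33.5 and 35.9 in the pDC libraries, a log2 fold of -1.33 ± 0.22 (adjusted p = 7.62e-05), and this call was kept without each library in turn. The narrower one (chr2:127142201-127142810, 610 bp), over the other start shown above, had 47.0 and 45.0 in the cDC libraries and 71.3 and 48.1 in the pDC libraries, a log2 fold of 0.38 ± 0.23 that was not called (adjusted p = 0.266). The difference between the 2 regions was not tested.

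**Figure D2:**
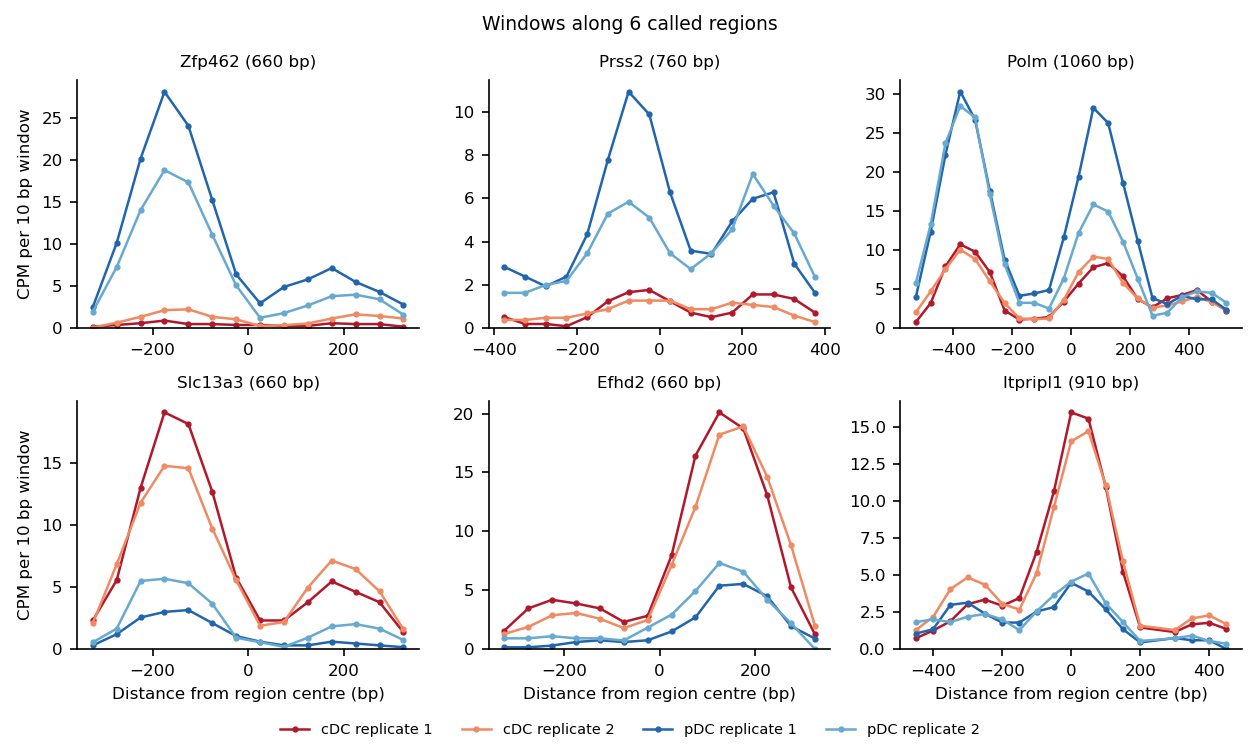
CPM per 10 bp window along 6 called regions, as distance from the region's centre, with a line for each PU.1 library. Zfp462, Prss2 and Polm were higher in both pDC libraries and Slc13a3, Efhd2 and Itpripl1 in both cDC libraries, and the Polm libraries ran together at the right-hand end.

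About 1 in 4 broad regions lay over an annotated start, and most of those were not called. The RefSeq promoter table has no entry for some genes, so shares are over regions whose nearest protein-coding gene has one. On that base 23.9% of broad regions and 6.10% of narrower ones overlapped an annotated start. The share was 16.1% in regions of 560 bp and 20.5% in those of 610 bp, so it went up with width. Of the 209 broad regions over a start that were not input-rich, 16 were higher in pDCs and 4 in cDCs (9.57% called), while of 638 over no start, 67 were higher in pDCs and 79 in cDCs (22.9% called). For regions under 600 bp the shares were 5.41% over a start and 19.01% over none. These shares were not tested against each other. For the region near Nf1 named next, the annotated start it covered was that of Gm30561, not of Nf1. Of the 20 calls over starts, Polm, Itpripl1 and a region near Nf1 (chr11:79305401-79306110, log2 fold -1.09 ± 0.20) were kept without each library in turn.

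The other calls over starts were lost in at least 1 of the fits without a library. At the start of Hk3, the gene of a hexokinase of myeloid cells (chr13:55021001-55021710), summed CPM was 73.1 and 69.8 in the cDC libraries and 25.6 and 40.3 in the pDC libraries (log2 fold -1.13 ± 0.24, adjusted p = 0.00114), and without cDC replicate 1 this call was lost, with adjusted p between 1.46e-09 and 0.0511 over the fits without 1 library. At the start of Fcer1g, which encodes the common gamma chain of Fc receptors (chr1:171234201-171234910), it was 66.5 and 70.0 in the cDC libraries and 130.3 and 89.8 in the pDC libraries (log2 fold 0.69 ± 0.20, adjusted p = 0.0153). The Fcer1g call was lost without either cDC library or without pDC replicate 1, with adjusted p between 3.13e-07 and 0.277. At the start of Zfp809, whose promoter is shown above, it was 84.8 and 92.5 in the cDC libraries and 155 and 107 in the pDC libraries (log2 fold 0.56 ± 0.19, adjusted p = 0.039), and this call was lost in the same 3 fits, with adjusted p between 2.32e-06 and 0.427. The regions at the starts of Pik3cg (118 and 141 in the cDC libraries and 152 and 156 in the pDC libraries, log2 fold 0.25 ± 0.17) and Elmo1 (75.7 and 92.6 in the cDC libraries and 109 and 103 in the pDC libraries, log2 fold 0.34 ± 0.19) were not called.

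**Figure D3:**
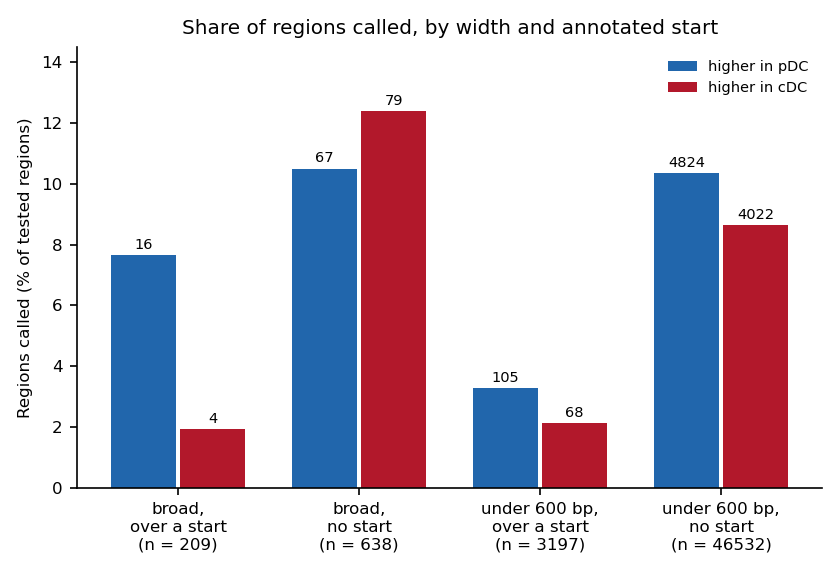
Share of tested regions called higher in pDCs or in cDCs, for broad regions that were not input-rich and for regions under 600 bp, over an annotated start or over none. Numbers above bars count the called regions. Over a start, 4 of 209 broad regions (1.91%) and 68 of 3197 regions under 600 bp (2.13%) were called higher in cDCs.

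At the split used here, 605 of the 1106 broad regions held more than 1 peak. Sub-peaks were split where the profile fell to 0.8 or less of the lower of 2 neighbouring maxima, and this gave 1749 sub-peaks, with 501 regions of 1 sub-peak, 583 of 2, 17 of 3 and 5 of 4 or more. In regions that were not input-rich, neighbouring tops lay a median of 350 bp apart, and in the 567 regions with 2 sub-peaks the higher top was a median of 1.99 times the lower. Their 2 log2 folds differed by a median of 0.38. Every sub-peak passed the filter on low counts, and 195 were higher in pDCs and 154 in cDCs, or 20.0%. Without the input-rich regions the numbers were 145 and 154. Of all 64639 sub-peaks tested 18.2% were called, 10.1% in pDCs and 8.12% in cDCs. Their number depended on the split. Beside 63769 tested regions, a limit of 0.6 in place of 0.8 gave 64141 tested sub-peaks, and 0.9 gave 65063. How many broad regions held more than 1 peak at these limits was not counted.

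Of the 605 broad regions with 2 or more sub-peaks, input-rich ones included, 431 had no called sub-peak, 22 had all of them higher in pDCs and 17 all higher in cDCs. In 73 regions some sub-peaks were higher in pDCs and the others were not called, and in 60 some were higher in cDCs and the others were not called. In 2 regions, inside Atg16l1 and Entpd1, sub-peaks were called in opposite directions. These patterns were not counted over all 832 regions with 2 or more sub-peaks. A called sub-peak beside an uncalled one does not by itself show a difference between them. Whether sub-peaks of a region differed in fold was tested directly, with the region F test of edgeR for unequal folds and, as a comparison chosen after seeing the data, with the difference between sub-peaks taken inside each library. The F test called 18 of 605 regions, against 2.76% of all 832 regions with 2 or more sub-peaks, and the within-library comparison called 61, against 9.50% of all. Both called 17 regions. No call of either test was kept without each library in turn: without cDC replicate 1 every within-library adjusted p of the 17 regions was 0.320 or higher.

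The smallest within-library p was inside Atg16l1, a gene of autophagosome formation (chr1:87765851-87766510). Its left sub-peak had 22.8 and 27.8 in cDCs and 63.8 and 50.1 in pDCs, a log2 fold of 1.17 ± 0.24 (adjusted p = 0.00104). Its right sub-peak had 40.3 and 31.6 in cDCs and 14.9 and 19.3 in pDCs, a log2 fold of -1.08 ± 0.29 (adjusted p = 0.00793). The cell types did not overlap in either, and the order was opposite in the 2 sub-peaks, whose tops lay 350 bp apart. The within-library adjusted p was 1.75e-07, and between 1.69e-09 and 0.32 over the fits without 1 library. Over the whole region the opposite changes gave a log2 fold of 0.27 ± 0.21, which was not called.

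Inside Entpd1, which encodes the ectonucleotidase CD39 (chr19:40660801-40661460), the left sub-peak had 29.7 and 32.6 in cDCs and 18.5 and 16.5 in pDCs (log2 fold -0.83 ± 0.28) and the right 49.4 and 41.7 in cDCs and 79.8 and 71.3 in pDCs (log2 fold 0.73 ± 0.21). The directions were again opposite, with a within-library adjusted p of 0.000274, lost without cDC replicate 1 or cDC replicate 2, between 0.000125 and 0.32 over the fits without 1 library. Inside Nedd9, which encodes a docking protein of cell adhesion (chr13:41466701-41467510), the left sub-peak was higher in cDCs, at 47.0 and 42.7 in cDCs and 16.9 and 23.1 in pDCs (log2 fold -1.17 ± 0.27), and the right, at 68.7 and 77.7 in cDCs and 94.1 and 94.0 in pDCs, was not called (log2 fold 0.36 ± 0.19). The Nedd9 within-library call was lost without cDC replicate 1, with adjusted p between 1.20e-06 and 0.32 over the fits without 1 library.

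In other regions a small sub-peak was near the floor of the signal in 1 cell type. Inside Pik3cd, the gene of the catalytic subunit of phosphoinositide 3-kinase delta (chr4:149665051-149665710), the right sub-peak had 1.90 and 5.33 in cDCs and 28.7 and 23.8 in pDCs (log2 fold 2.85 ± 0.40), beside a left one of 48.6 and 58.1 in cDCs and 107 and 87.7 in pDCs (log2 fold 0.87 ± 0.20). Inside Snx29, a sorting nexin gene (chr16:11695351-11695960), the right sub-peak had 4.50 and 4.48 in cDCs and 18.0 and 15.4 in pDCs (log2 fold 1.90 ± 0.39) and the left, with 44.3 and 28.5 in cDCs and 24.5 and 26.6 in pDCs, was not called. Inside Lnpep, which encodes an aminopeptidase of antigen cross-presentation (chr17:17587351-17588010), the right sub-peak had 17.7 and 11.3 in cDCs and 0.866 and 3.85 in pDCs (log2 fold -2.69 ± 0.53) and the left, with 56.0 and 53.8 in cDCs and 39.3 and 46.4 in pDCs, was not called. The small sub-peak was higher in pDCs in the first 2 regions and in cDCs in the last. Without cDC replicate 1 the within-library adjusted p was 0.320 for Pik3cd and Snx29 and 0.335 for Lnpep, and without each other library it stayed below 0.05 in all 3.

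Beside Spi1 itself, a 660 bp region 0.914 kb from the gene span (chr2:91080801-91081460) was higher in cDCs, with a summed CPM of 91.1 and 83.6 in the cDC libraries and 42.2 and 61.6 in the pDC libraries (log2 fold -0.76 ± 0.22, adjusted p = 0.0133). This call was lost without cDC replicate 1 or cDC replicate 2, with adjusted p between 1.37e-06 and 0.252 over the fits without 1 library. The difference lay in the left sub-peak, with 60.8 and 55.2 in cDCs and 17.2 and 33.3 in pDCs (log2 fold -1.22 ± 0.27), while the right, with 30.3 and 28.4 in cDCs and 24.97 and 28.4 in pDCs, was not called (log2 fold -0.14 ± 0.27). The within-library comparison called the 2 sub-peaks unequal (adjusted p = 0.0203) and the region F test did not (adjusted p = 0.106). Without 1 library the within-library adjusted p lay between 0.000874 and 0.501, above 0.05 in every fit but the one without pDC replicate 2.

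**Figure D4:**
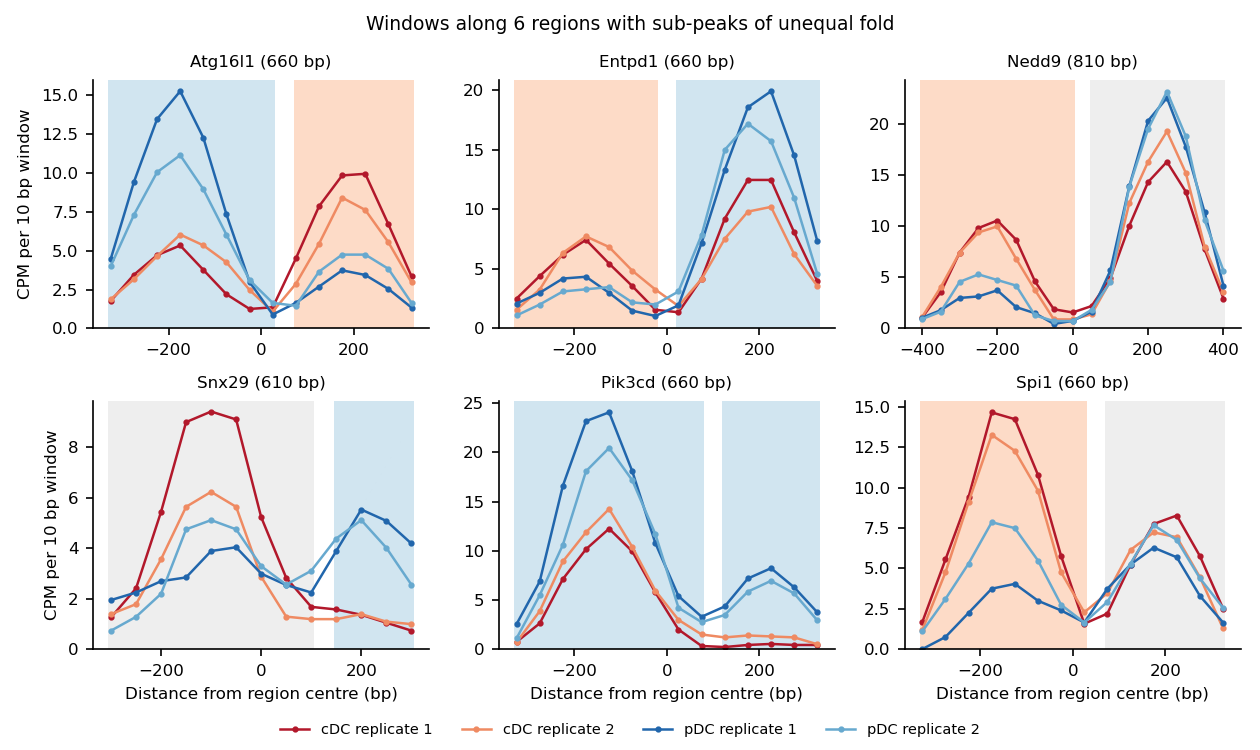
CPM per 10 bp window along 6 regions with unequal sub-peaks, as distance from the region's centre, with a line for each PU.1 library. Shading gives each sub-peak's call, blue for higher in pDCs, orange for higher in cDCs and grey for not called, and Atg16l1 and Entpd1 carry both colours.

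At the level of single windows, 15647 of the 16793 windows in broad regions passed the filter, and 1194 were higher in pDCs and 876 in cDCs. Without the input-rich regions the numbers were 833 and 876. The calls over all broad regions came to 13.2%, against 16.0% of all 288100 windows tested, where pDC calls made up 8.74% and cDC calls 7.24%. With the input-rich regions included, windows were called only as higher in pDCs in 218 regions, only as higher in cDCs in 196 and in both directions in 5, and 687 regions had no called window. Every tested window was called in 3 regions. Regions were not counted in this way over the whole series, so these counts have no share of all regions beside them.

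Profiles along broad regions varied between cell types by little more than between pDC replicates. The highest window of the 2 cDC libraries lay over 150 bp apart in 8.43% of the 1068 regions that were not input-rich, and that of the 2 pDC libraries in 11.05%, while the 4 pairs of a cDC and a pDC library gave 11.1% to 13.5%. The median Pearson correlation of the window counts along a region was 0.969 between cDC replicates, 0.944 between pDC replicates and 0.932 between cell types. Windows overlap in reads and all libraries share the fall of signal towards the edges, so these correlations describe the profiles and carry no test.

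Regulators of dendritic and myeloid cells held calls in both directions. Broad regions were assigned to the nearest gene span, and 11 of them, near 9 of the 31 listed regulators, had 2 pDC calls, 3 cDC calls and 6 that were not called, beside a called share of 21.5% of broad regions and 18.3% of all regions. Their median log2 fold was -0.02, beside 0.06 for all broad regions and 0.01 for all regions. Id2, an inhibitor of E proteins needed in cDC development, was the nearest gene of 2 regions far from its span. The region 92.6 kb away (chr12:25188651-25189860, 1210 bp) was higher in pDCs, with 35.1 and 35.2 in the cDC libraries and 74.7 and 58.1 in the pDC libraries (log2 fold 0.92 ± 0.23, adjusted p = 0.00448), and most of this came from its last sub-peak, with 12.2 and 14.8 in cDCs and 46.5 and 40.1 in pDCs. The region 234 kb away (chr12:25329751-25330560) was higher in cDCs, with 116 and 108 in the cDC libraries and 61.1 and 62.3 in the pDC libraries (log2 fold -0.86 ± 0.19, adjusted p = 0.00219). Both calls were lost without cDC replicate 1 or cDC replicate 2, with adjusted p between 2.34e-06 and 0.142 for the first and between 7.60e-06 and 0.136 for the other.

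Inside Etv6, an ETS-family repressor of blood cell development, one region (chr6:134114951-134115910) was higher in cDCs, with 121 and 129.9 in the cDC libraries and 69.0 and 92.4 in the pDC libraries (log2 fold -0.64 ± 0.19, adjusted p = 0.0183), and another inside the gene, at 91.4 and 103 in the cDC libraries and 132 and 110.3 in the pDC libraries, was not called. A further region over the start of Etv6 (chr6:134035101-134035810), assigned to its neighbour Gm46977, had 46.5 and 40.7 in the cDC libraries and 60.2 and 48.1 in the pDC libraries (log2 fold 0.32 ± 0.23) and was not called. The Etv6 call was lost without cDC replicate 1 or cDC replicate 2 (adjusted p between 3.30e-06 and 0.293 over the fits without 1 library). A region 285 kb from Klf4 was called as higher in pDCs (log2 fold 0.73 ± 0.24, adjusted p = 0.0307), and this call was kept only without pDC replicate 2 (adjusted p between 2.18e-05 and 0.344). Regions near Ikzf1 (0.43 ± 0.17), Mef2c (0.21 ± 0.19), Stat3 (-0.02 ± 0.19), Bcl6 (-0.23 ± 0.26) and Bcl11a (-0.52 ± 0.28) were not called.

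Of the 24 genes of cDC identity, Cd83 and Wdfy4 had 4 broad regions, 1 of them higher in pDCs and 3 not called. The shares higher in pDCs were 11.7% of all broad regions and 10.1% of all regions tested. Inside or beside Wdfy4, known for its role in cross-presentation, one region had 111 and 101 in the cDC libraries and 145 and 124 in the pDC libraries and the other 64.8 and 61.1 in the cDC libraries and 44.0 and 44.8 in the pDC libraries, and neither was called. The called one lay 6.25 kb from Cd83, a maturation marker (chr13:43778251-43778860), with 15.4 and 19.7 in the cDC libraries and 33.1 and 34.1 in the pDC libraries (log2 fold 0.93 ± 0.28, adjusted p = 0.0173). Of the 20 genes of pDC identity, Ptprf and Ly6c2 had 1 region each and both were higher in pDCs, but that of Ly6c2 was input-rich, and 2 regions are too few to set against the 11.7% of broad regions with such a call. The region 4.35 kb from Ptprf, a receptor tyrosine phosphatase gene (chr4:118295751-118296560), had 36.8 and 33.4 in the cDC libraries and 71.6 and 61.1 in the pDC libraries (log2 fold 0.92 ± 0.23, adjusted p = 0.00414). The Cd83 and Ptprf calls were lost without cDC replicate 1 or cDC replicate 2, with adjusted p between 0.00672 and 0.342 and between 1.10e-05 and 0.169.

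Of 5 regions near genes of phagocytes and integrins, 3 were higher in pDCs by the edgeR test, beside the 11.7% of all broad regions and 10.1% of all regions. No call fell in cDCs at any p, since all 5 log2 folds were above 0 under TMM scaling, while with library sizes from the windows left out the uncalled Csf2ra and Ncf4 regions had log2 folds of -0.35 and -0.23 and no member of the list was called. Besides Fcer1g these were inside Mrc1, the mannose receptor gene, with 53.6 and 60.5 in the cDC libraries and 101 and 82.8 in the pDC libraries (log2 fold 0.69 ± 0.20), and inside Itgb7, an integrin gene, with 39.7 and 37.8 in the cDC libraries and 68.4 and 67.4 in the pDC libraries (log2 fold 0.81 ± 0.22). Of the 2 regions near B cell genes, that of Blnk, a B cell adaptor, was higher in pDCs (log2 fold 0.86 ± 0.24) and that of Syk was not called. Without cDC replicate 1 or cDC replicate 2 the calls of Mrc1, Itgb7 and Blnk were lost, with adjusted p between 4.95e-05 and 0.35, between 0.000621 and 0.219 and between 0.000474 and 0.343 over the fits without 1 library. No broad region had a nearest gene on the lists of T and NK cells, of erythroid, megakaryocyte and mast cells or of non-haematopoietic cells. These lists had only 36, 46 and 32 regions of any width, and 1.64% of all regions were broad. Having none is therefore near that share and is no result about these lists. The call of Actb, a housekeeping gene, was lost with library sizes from the windows left out, where its log2 fold was 0.50.

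**Figure D5:**
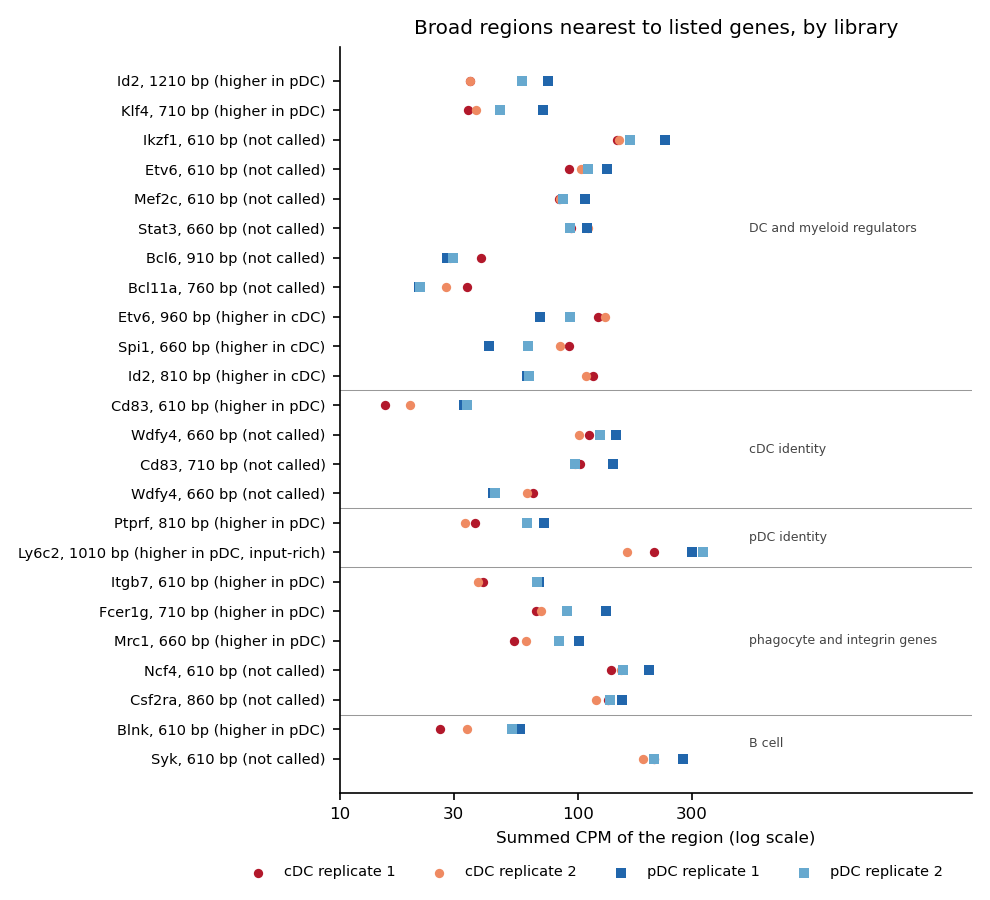
Summed CPM of each PU.1 library (log scale) in the broad regions whose nearest gene is on a list of regulators, cell identity genes, phagocyte and integrin genes or B cell genes, with circles for cDCs and squares for pDCs. The separation between cell types is clear at the Id2 regions, and the libraries overlap at Stat3.

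Several genes had more than 1 broad region nearby. The 1068 regions had 973 nearest genes, of which 88 had 2 or more and 6 had 3 or more. Inpp5d, which encodes the lipid phosphatase SHIP1, had 4 within its span (chr1:87638001-87658410 from the first to the last), with log2 folds of 0.48 ± 0.19, -0.91 ± 0.25, -0.56 ± 0.25 and -0.10 ± 0.20 along the gene. Only the one at chr1:87639501-87640110 was called, with 53.1 and 45.2 in the cDC libraries and 23.7 and 28.9 in the pDC libraries (adjusted p = 0.0107), and this was lost without cDC replicate 1 or cDC replicate 2 (adjusted p between 0.000197 and 0.259).

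Sorl1, a sorting receptor gene, was the nearest gene of 3 regions called in different directions. The region inside the gene (chr9:42028751-42029460) was higher in pDCs, with 21.3 and 31.8 in the cDC libraries and 73.5 and 66.3 in the pDC libraries (log2 fold 1.396 ± 0.24), the next had a log2 fold of 0.19 ± 0.21 and was not called, and the one 55.8 kb away (chr9:42180101-42180710) was higher in cDCs, with 70.0 and 70.7 in the cDC libraries and 29.0 and 29.2 in the pDC libraries (log2 fold -1.27 ± 0.23). The cDC call was kept without each library in turn, and the pDC call was lost without cDC replicate 1, with adjusted p between 4.39e-10 and 0.0518. Near Ifnar2, which encodes a chain of the type I interferon receptor, 1 of 3 regions was higher in pDCs (log2 fold 0.59 ± 0.17, adjusted p = 0.0164), a call lost without cDC replicate 1 or cDC replicate 2 (adjusted p between 5.14e-05 and 0.306). The 3 regions each of Alox5ap, which encodes the 5-lipoxygenase activating protein, Tbl1xr1 and Zfp36l2 were not called.

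The widest regions that were not input-rich and those with the highest levels were mostly not called. Elf2, an ETS-family gene, had the widest (chr3:51275951-51277660, 1710 bp, over its start), with 119 and 131 in the cDC libraries and 145 and 125 in the pDC libraries (log2 fold 0.11 ± 0.18, adjusted p = 0.739). The next, of 1510 bp and 67.5 kb from Lrrc28 (chr7:67444451-67445960), was called as higher in pDCs (log2 fold 0.60 ± 0.19, adjusted p = 0.0274), and this was lost without cDC replicate 1 or cDC replicate 2 (adjusted p between 0.000171 and 0.413). Regions of 1410 bp at Trpv2 (0.17 ± 0.17) and Asmt (-0.07 ± 0.16) and of 1260 bp at B9d2 (-0.06 ± 0.18) were not called.

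Among regions that were not input-rich, the highest level per window, 24.0 CPM, was at chr9:96399301-96399910, 34.9 kb from Atp1b3. It had 278 and 233 in the cDC libraries and 452 and 283 in the pDC libraries, a log2 fold of 0.53 ± 0.17 (adjusted p = 0.0252) that was kept only without pDC replicate 2 (adjusted p between 2.34e-13 and 0.425). The next were near Slc22a28 (0.07 ± 0.14), inside Il6ra, the interleukin-6 receptor gene (0.06 ± 0.15), near Sfi1 (chr11:3105301-3105910, 0.11 ± 0.15) and near Syk, a tyrosine kinase of antigen and Fc receptor signalling (0.29 ± 0.16), none of which was called. Of these high regions, that of Actb had the largest fold.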

How the data were processed

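PU.1 ChIP-seq was measured in 2 cDC and 2 pDC libraries and 1 cDC input library. The values are whole-number read counts per 10 bp window, as the authors deposited them, for 329996 listed windows. The submitters' processing notes name Subread 1.4.4 and mm10. How windows were chosen, and whether reads were extended, is stated in none of these sources. Total counts were 11034858 and 11388554 (cDCs), 8099633 and 6896416 (pDCs) and 2776490 (input). A read can fall in several windows, so these totals are not numbers of reads.

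Windows with 1000 or more input counts (146) were left out, and the others were joined at gaps of up to 100 bp. Summed counts of regions, sub-peaks and windows were tested in edgeR 4.0.16 by quasi-likelihood (limma 3.58.1, R 4.3.3), with TMM scaling, filterByExpr at a minimum count of 10 and Benjamini-Hochberg adjustment over all features at 0.05. A positive log2 fold means higher in pDCs, and its SE is the absolute log2 fold over the square root of F. For single values, 2 libraries against 2 allow no exact two-sided permutation p below 0.333, so no such test was used. The scripts were tested on simulated data. There the region F test for unequal sub-peaks made too many calls and the within-library comparison did not. The simulated sub-peaks were drawn independently with a common spread. They therefore cannot show how the tests behave where sub-peaks of a region vary together within a library. Alternatives were DESeq2 1.42.0, other scalings, filters, merge distances and widths, a replicate block and leaving out each library. Without 1 library its cell type has a single library, assumed to vary like the other cell type's pair.

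The regions and gene lists were chosen with earlier results of these data known. Regions named are the 10 widest, the 10 with the smallest p in each direction, the 10 with the highest level, the 10 with the smallest p for unequal sub-peaks and those nearest to a listed gene. Chosen after values were seen are the input-rich limit, the promoters shown, the calls over starts, the genes with several regions, Spi1's sub-peaks and the same rankings without input-rich regions. Promoters came from RefSeq (GRCm38.p6, 32817 entries). Tables and plots were made with Python 3.11.15, pandas 2.3.3, numpy 2.4.6 and matplotlib 3.10.9. No sequence of the regions outside these promoters was used here, and 1 region on a list is not reported here.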

Additional observations from a re-analysis of the deposited data

Results flagged for a closer look

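Input signal stood out in 38 of the 1106 broad regions, where the raw input count was 0.537 to 2.02 times the mean raw PU.1 count. The input library entered no comparison between cell types. These regions lay on 12 chromosomes, and 24 of them were called as higher in pDCs. The input came from cDCs, and its part in these calls was not tested.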

How the results depend on the processing

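Of the broad regions, 129 were called as higher in pDCs and 109 in cDCs. DESeq2 gave 80 in pDCs, a tested minimum fold of 1.5 gave 27 and 35, merging at 200 bp gave 204 and 181, a width of 500 bp gave 259 and 249, a width of 800 bp gave 35 and 16, and library sizes from the windows left out gave 1 and 19. Leaving out 1 library gave 26 to 277 in pDCs and 31 to 172 in cDCs. For sub-peaks (195 and 154), the minimum fold gave 51 and 52, and leaving out 1 library gave 46 to 388 and 44 to 253. For regions with unequal sub-peaks (18), a wider grid, with 1 window in 4, gave 11, Simes combination of sub-peak p-values gave 0 (54 at an unadjusted p below 0.05), and leaving out 1 library gave 0 to 185 (69 at an unadjusted p below 0.05 without cDC replicate 1, where edgeR called 0). The within-library comparison (61) gave 0 to 108 without 1 library (62 at an unadjusted p below 0.05 without cDC replicate 1). For windows (1194, 876 and 5 regions with both), DESeq2 gave 228, 149 and 0, a mean of at least 30 counts gave 778 and 572, the minimum fold gave 353, 295 and 0, and leaving out 1 library gave 220 to 2098, 246 to 1221 and 0 to 28. At an unadjusted p below 0.05, regions with windows in both directions numbered 11 without cDC replicate 1, 4 with DESeq2 and 11 with the minimum fold. The cause of these changes was not tested, apart from the smaller or larger sets that other widths and merge distances make by construction.

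With library sizes from the windows left out, 2 called regions that the text or its rules name changed sign, Lrrc4c to -0.010 and Gm40011 to -0.027. Over all alternatives, the log2 folds of the 130 regions named by these rules kept direction and side of the threshold 1403 times, fell below the threshold 253 times and passed it 32 times. The labels do not say whether replicate numbers pair the cDC and pDC libraries. The replicate differences of the 2 cell types were hardly correlated (r = 0.0177 over 63769 regions), which cannot show that the libraries were unpaired. A replicate block gave 56 regions with unequal sub-peaks in place of 18, and 129 and 108 regions, 191 and 154 sub-peaks and 1250 and 935 windows. With 2 libraries in each cell type and calls that depend on single libraries, uncalled regions may still differ.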
